A study of Mus musculus with 11 samples.

Results

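Gene expression in dorsal root ganglia (DRGs) of wild-type (WT) mice was compared between mice treated with paclitaxel (PTX) and control mice. PTX is a chemotherapy drug that binds tubulin and causes painful peripheral neuropathy. The comparison set the 3 WT libraries labelled PTX, collected 4 weeks after PTX, against the 3 WT libraries labelled control, and these are 6 of the 11 RNA-Seq libraries of the study. All genes with a mean of at least 0.5 FPKM over the 6 libraries were kept, which gave 15099 of 36670 genes. FPKM states expression as fragments per kilobase of transcript, scaled to the depth of the library. The WT mice were adult littermates of a *Gpr37l1* mutant line on a C57BL/6 background. The study speaks of naive mice without injury, and axon injury genes in WT controls 1 and 2 went against that description. In each WT group, replicates 1 and 2 are labelled male and replicate 3 female. The other 5 libraries came from *Gpr37l1* KO mice, 3 control and 2 PTX. They entered the estimate of the spread between libraries and a comparison of the PTX change between genotypes in a few genes. The PTX dose of the sequenced mice, the vehicle given to controls, the time of day and the ganglion levels collected are not given in the sources used here. Nothing in the labels says whether ganglia of several mice were pooled, so p-values measure the spread between these libraries, which may be partly technical.

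In DRGs, the somata of sensory neurons are each wrapped by satellite glial cells (SGCs), together with Schwann cells along the axons, resident macrophages, fibroblasts and vessels. Nociceptors detect painful stimuli and large A-fibre neurons detect touch and position. PTX stabilizes microtubules, along which axons carry their cargo. Earlier work has tied PTX neuropathy to damaged axons, mitochondria, ion channels and immune cells of the ganglion, and the gene lists used here follow these themes.

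Total counts were 52735648 to 75538569 in the WT controls and 56308213 to 80348732 after PTX. The tissue label was borne out by markers of sensory neurons. All 16 were measured, and their summed level was 7183 to 8083 FPKM in controls and 7347 to 7438 FPKM after PTX. Genes of the X and Y chromosomes matched the labelled sex in all 6 WT libraries, and 1 KO control labelled female had neither *Xist* nor Y-linked transcripts above 0.05 FPKM. WT controls 1 and 2 stood apart from the other 4 WT libraries. Their summed level of 14 axon injury genes was 442 and 748 FPKM, against 204.8 FPKM in WT control 3 and 192 to 271 FPKM in the 3 PTX mice. Genes of skeletal muscle, a tissue outside the ganglion, summed to 678, 19.2 and 592 FPKM in WT controls 1, 2 and 3 and to 67.0, 226 and 4.83 FPKM in PTX mice 1, 2 and 3. List medians are therefore given against all 3 controls and again against WT control 3 alone, a comparison with 1 control library that was added after the data were seen. Its log2 values come from the same fit without WT controls 1 and 2, with labelled sex still a term. WT control 3 is labelled female and PTX mice 1 and 2 male, so these values are not plain FPKM differences. *Fabp7*, for example, was at -0.387, although the PTX mean was 148.4 FPKM and WT control 3 was at 145.4 FPKM.

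Across all 15099 genes, 1 gene rose after PTX and no gene fell at an adjusted p under 0.05 (edgeR's quasi-likelihood test). These calls make up 0.00662% and 0.0% of tested genes. At an unadjusted p under 0.05, 1003 genes (6.64%) were higher and 1044 genes (6.91%) were lower. DESeq2, run as an alternative, called 143 genes higher (0.947%) and 169 lower (1.12%). In 1023 genes (6.78%), the FPKM of all 3 PTX mice lay above all 3 controls, and in 1120 genes (7.42%) all 3 lay below. Such genes are called nonoverlapping here, and each list is read against these shares. Against WT control 3 alone, all 3 PTX mice were higher in 3060 genes (20.3%) and lower in 4380 genes (29.0%). In 1906 genes (12.6%), WT controls 1 and 2 both lay above the other 4 WT libraries, and in 2632 genes (17.4%) both lay below them. The median log2 fold change over all genes was -0.005, and 49.0% of genes were above 0. A log2 fold change is given as PTX minus control throughout.

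**Figure D1:**
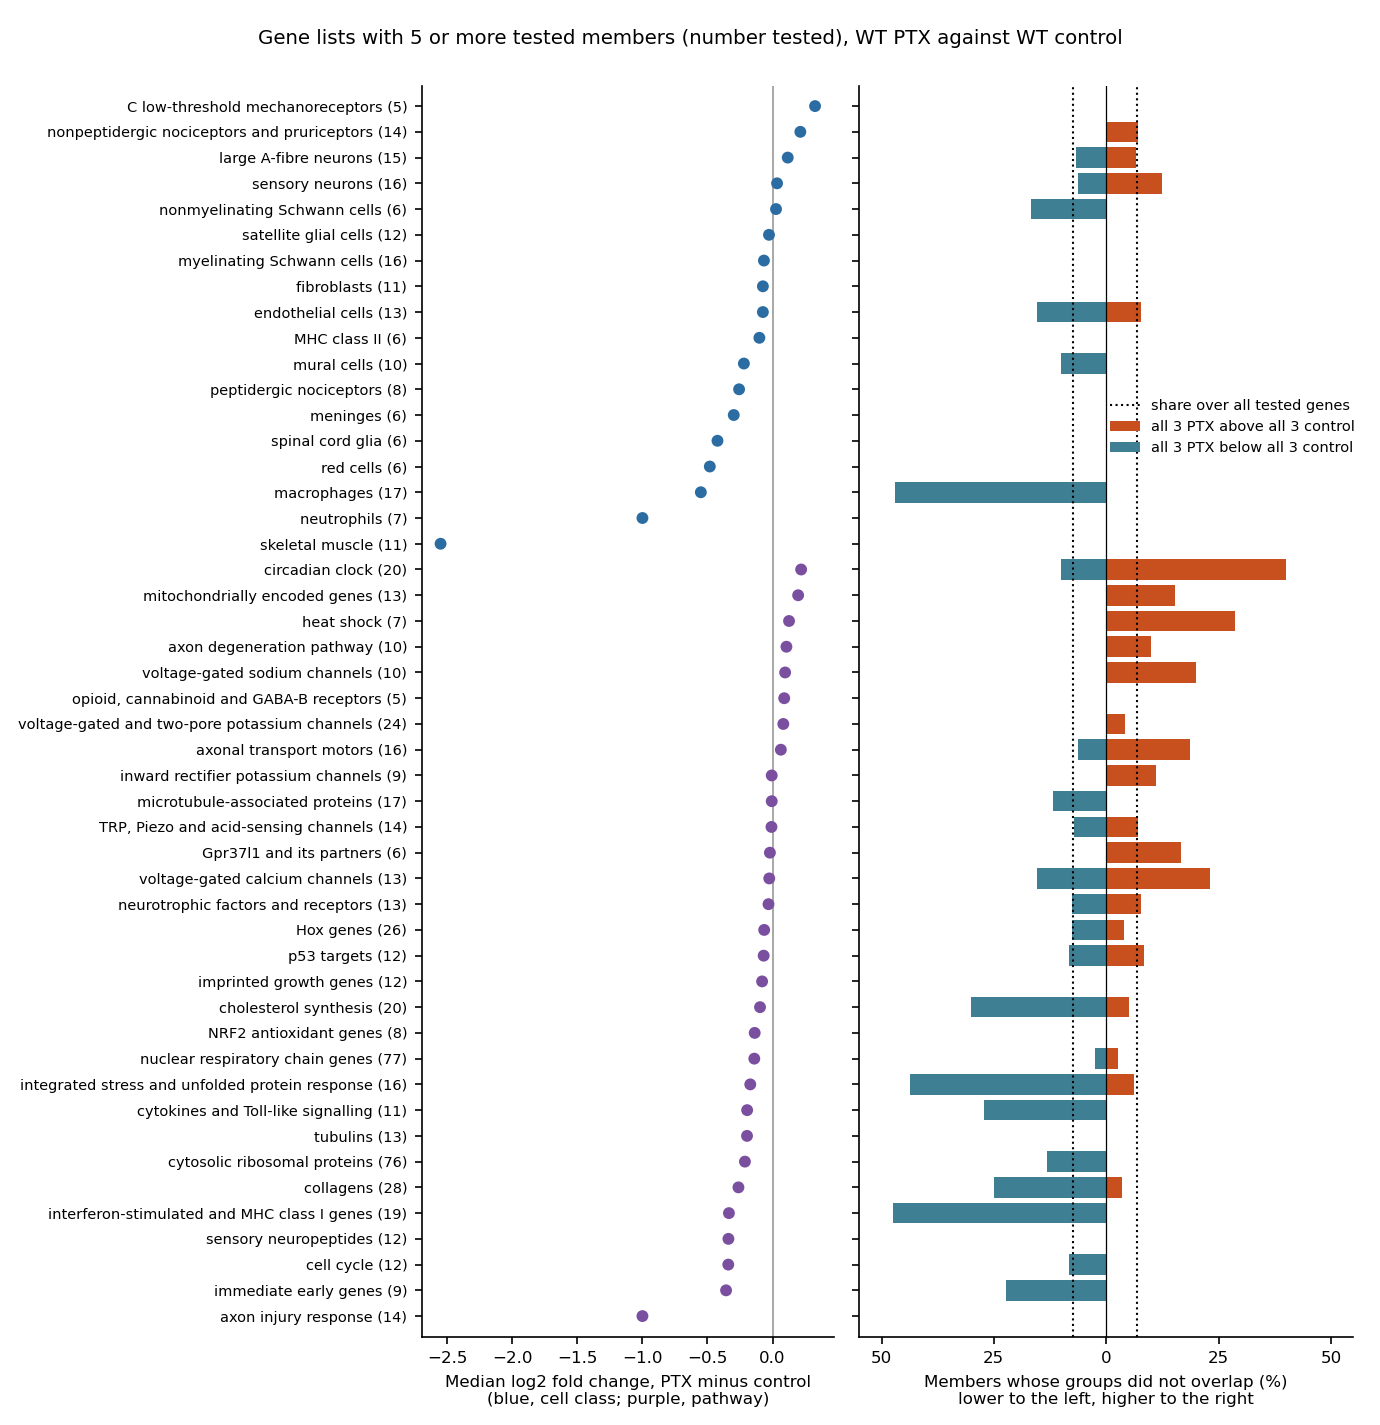
Gene lists with at least 5 tested members. Left, the median log2 fold change of PTX against control in WT DRG, with cell classes in blue and pathways in purple. Right, the percentage of members in which all 3 PTX mice lay above (orange) or below (teal) all 3 controls, with dotted lines at 6.78% and 7.42%, the shares over all tested genes. The clock list extends to the right, with 8 of 20 members, and macrophage and interferon lists extend to the left, with 8 of 17 and 9 of 19 members.

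The gene that rose was *Per3*, a period gene of the circadian clock. The clock is a feedback loop in which BMAL1 (encoded by *Arntl*) and CLOCK drive period and cryptochrome genes, whose proteins then inhibit them. A second loop runs through *Nr1d1* and *Nr1d2*, which repress *Arntl*, and *Dbp*, *Tef* and *Hlf* are output factors opposed by *Nfil3*. *Per3* (ENSMUSG00000028957) maps to chromosome 4 (GRCm38), between 151003652 and 151044665, on the minus strand. It was at 0.79, 0.89 and 1.24 FPKM in controls 1, 2 and 3 and at 1.88, 1.84 and 2.22 FPKM in PTX mice 1, 2 and 3. The lowest PTX value was therefore above the highest control value, and WT control 3 was the highest of the controls. This is a log2 fold change of 1.04 ± 0.105 (SE; adjusted p = 0.0204, edgeR), or 0.965 against WT control 3 alone. *Per3* passed the threshold in 10 of 17 alternatives, with log2 fold changes of 0.60 to 1.12 and adjusted p-values of 3.5e-15 (DESeq2) to 0.361 (edgeR with no sex covariate).

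Among the 20 clock genes tested, 8 were nonoverlapping and higher after PTX and 2 were nonoverlapping and lower. The list median was 0.22, or 0.16 against WT control 3 alone, and 17 of 20 genes were above 0. DESeq2 called 5 genes higher and 2 lower. In 8 of 20 genes WT controls 1 and 2 lay below the other 4 WT libraries, against 17.4% of all genes. *Ciart*, a repressor in the core loop, was at 0.63, 0.60 and 0.77 FPKM in controls and 1.18, 1.42 and 2.38 FPKM after PTX (log2 fold change 1.29 ± 0.214 SE, adjusted p = 0.173, edgeR). *Dbp* was at 2.83, 1.64 and 3.59 FPKM in controls and 4.83, 6.01 and 4.78 FPKM after PTX. *Nr1d2* was at 6.06, 6.69 and 9.24 FPKM in controls and near 12 FPKM in each PTX mouse (11.8, 11.98 and 11.97). In all of these genes the PTX values sat above every control, although WT control 3 came closest in *Dbp* and *Nr1d2*. Their log2 fold changes were 1.02 ± 0.275 and 0.72 ± 0.121 (SE).

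The opposite order held for *Arntl*, the positive arm of the loop. It was at 1.09, 1.05 and 1.13 FPKM in controls and 0.65, 0.60 and 0.35 FPKM after PTX (log2 fold change -1.04 ± 0.187 SE, adjusted p = 0.173, edgeR). Further members are named here after their values were seen. *Nfil3* was at 4.39, 4.63 and 3.22 FPKM in controls and 2.38, 2.95 and 2.32 FPKM after PTX. *Per2*, *Tef*, *Cry1* and *Bhlhe40* were nonoverlapping and higher, with log2 fold changes of 0.53, 0.31, 0.23 and 0.18. The groups overlapped in *Nr1d1*, which was at 9.06, 4.99 and 13.1 FPKM in controls and 13.0, 15.4 and 10.4 FPKM after PTX. *Per1*, *Clock*, *Cry2* and *Npas2* overlapped as well. Against WT control 3 alone, *Ciart* differed by 1.6, *Dbp* by 0.82, *Nr1d2* by 0.47, *Arntl* by -1.40 and *Nfil3* by -0.34 on the log2 scale, with the same signs. Clock genes vary over the day, and the time of day of collection is not given for either group. A difference in collection time therefore cannot be told apart from PTX here, and its part was not tested.

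**Figure D2:**
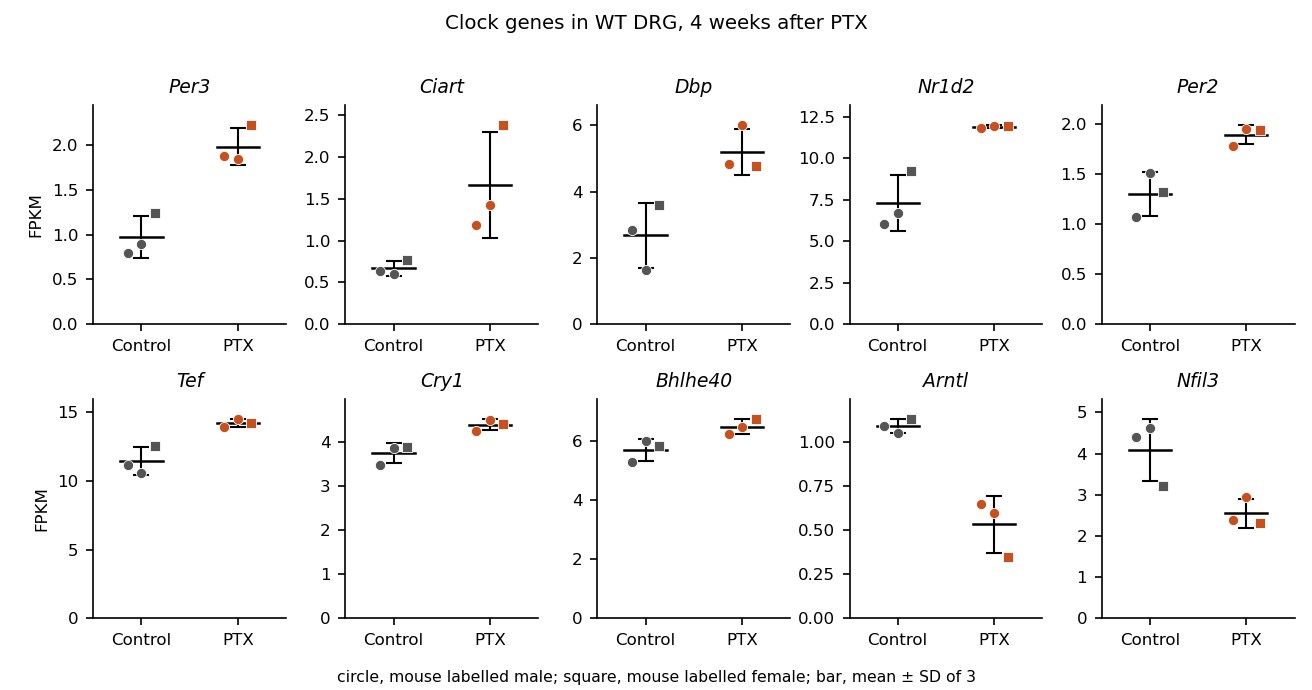
FPKM of 10 clock genes in each WT library (linear axes from 0). Circles are mice labelled male, squares mice labelled female, and bars the mean ± SD of 3. *Per3*, *Ciart*, *Dbp*, *Nr1d2*, *Per2*, *Tef*, *Cry1* and *Bhlhe40* were higher in all 3 PTX mice than in any control, and *Arntl* and *Nfil3* were lower.

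The promoters of the clock genes were searched for the DNA elements through which the loop is known to act. RefSeq windows of 250 bases before to 50 bases after the start (GRCm38.p6) were at hand for 17 of the 20 genes and for 27025 genes in all, and both strands were searched. The E-box CACGTG, bound by BMAL1 and CLOCK, was found in *Ciart*, *Tef*, *Cry1*, *Per1* and *Bhlhe41*, which is 5 of 17 genes (29.4%) against 8.09% of all genes. Of these, *Per1* and *Bhlhe41* had overlapping groups. The D-box TTANGTAA, bound by DBP, TEF and NFIL3, was found in *Per3* alone, at 205 and 158 bases before the start. That is 1 of 17 genes (5.88%) against 2.72% of all genes. The ROR element TAGGTCA, bound by the *Nr1d1* and *Nr1d2* products, was found in *Arntl* and *Nfil3*, the 2 members that were nonoverlapping and lower. That is 2 of 17 genes (11.8%) against 2.97% of all genes. No matches of different motifs overlapped. The windows of 4 genes are shown 5′ to 3′ on the gene's strand, with E-boxes, D-boxes or ROR elements in capitals, because each carries an element and belongs to a nonoverlapping gene. *Ciart* is at chr3:95882179-95882478 (minus strand), *Per3* at chr4:151044616-151044915 (minus), *Arntl* at chr7:113207261-113207560 (plus) and *Nfil3* at chr13:52980990-52981289 (minus).
Ciart: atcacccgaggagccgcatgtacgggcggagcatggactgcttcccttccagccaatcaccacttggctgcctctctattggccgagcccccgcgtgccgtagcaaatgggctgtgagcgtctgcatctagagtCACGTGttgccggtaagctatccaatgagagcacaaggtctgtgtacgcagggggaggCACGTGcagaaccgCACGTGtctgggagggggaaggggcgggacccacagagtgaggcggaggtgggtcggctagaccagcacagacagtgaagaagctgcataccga
Per3: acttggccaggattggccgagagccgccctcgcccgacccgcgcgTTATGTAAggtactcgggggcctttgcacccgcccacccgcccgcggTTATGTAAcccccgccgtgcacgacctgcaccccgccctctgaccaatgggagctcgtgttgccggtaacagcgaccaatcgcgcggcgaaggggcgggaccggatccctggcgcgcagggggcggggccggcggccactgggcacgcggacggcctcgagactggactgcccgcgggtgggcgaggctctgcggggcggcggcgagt
Arntl: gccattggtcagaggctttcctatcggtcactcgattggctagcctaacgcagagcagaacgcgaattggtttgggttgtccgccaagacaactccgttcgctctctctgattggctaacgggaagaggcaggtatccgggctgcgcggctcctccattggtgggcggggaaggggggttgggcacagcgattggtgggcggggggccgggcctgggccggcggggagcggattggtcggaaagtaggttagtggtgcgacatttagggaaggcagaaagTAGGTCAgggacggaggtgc
Nfil3: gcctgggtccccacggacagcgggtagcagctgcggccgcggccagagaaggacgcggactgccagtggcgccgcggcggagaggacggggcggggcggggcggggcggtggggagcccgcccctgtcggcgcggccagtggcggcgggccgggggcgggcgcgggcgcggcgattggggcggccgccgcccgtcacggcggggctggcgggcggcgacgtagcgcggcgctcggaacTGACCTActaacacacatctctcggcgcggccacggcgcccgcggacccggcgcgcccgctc
*Ciart* holds 3 E-boxes within this window. The *Nfil3* element lies on the opposite strand, so the strand shown reads TGACCTA. A match describes the letters only, and binding was not measured.

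Macrophage genes were lower after PTX. Of 17 members tested, 8 were nonoverlapping and lower, 0 were nonoverlapping and higher, and all 17 had a log2 fold change below 0 (median -0.55). The summed level of the list was 110, 109 and 85.5 FPKM in controls 1, 2 and 3 and 74.6, 74.4 and 61.6 FPKM in PTX mice 1, 2 and 3. With WT control 3 alone the median was -0.28. In 7 of 17 members WT controls 1 and 2 lay above the other 4 WT libraries, against 12.6% of all genes, and in 9 of 17 all 3 PTX mice lay below WT control 3, against 29.0%. DESeq2 called 6 members lower and 0 higher. In whole ganglia, fewer macrophages and less RNA per macrophage cannot be told apart.

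*C1qc*, a chain of the complement initiator C1q that macrophages produce, was at 5.90, 6.50 and 5.61 FPKM in controls and 3.16, 3.55 and 3.27 FPKM after PTX. Its log2 fold change was -0.85 ± 0.148 (SE; adjusted p = 0.173 with edgeR and 2.3e-04 with DESeq2). *C1qb*, another chain, was at 12.9, 12.6 and 9.15 FPKM in controls and 7.33, 7.55 and 4.99 FPKM after PTX. Every PTX value was below every control value in both genes. *Adgre1*, which encodes the macrophage antigen F4/80, was at 1.69, 2.04 and 2.13 FPKM in controls and 1.15, 1.25 and 1.22 FPKM after PTX. *Aif1*, which encodes IBA1, was at 1.67, 0.97 and 1.09 FPKM in controls and 0.62, 0.91 and 0.32 FPKM after PTX. Other members were named after their values were seen. *Csf1r*, the receptor on which macrophages depend for survival, was at 5.18, 5.01 and 4.33 FPKM in controls and 3.26, 3.93 and 3.07 FPKM after PTX, and *Mrc1*, *Cx3cr1* and *Lyz2* were nonoverlapping and lower as well. The groups overlapped in *C1qa*, *Cd68*, *Cd163* and *Ccr2*, and *Cd68* was at 2.28, 2.84 and 2.08 FPKM in controls and 2.38, 2.50 and 1.92 FPKM after PTX. *Trem2* was left out, with no library above 0.29 FPKM. The MHC class II list, which marks antigen-presenting cells, had 0 nonoverlapping members of 6 and a median of -0.10, or 0.075 against WT control 3 alone.

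Interferon-stimulated and MHC class I genes were lower in the same mice. These genes are induced by interferons and serve antiviral defence and antigen presentation on most cells. Of 19 tested, 9 were nonoverlapping and lower and 0 were nonoverlapping and higher, with a median of -0.33 and 18 of 19 below 0. DESeq2 called 6 lower. In 14 of 19 genes all 3 PTX mice lay below WT control 3 too, against 29.0% of all genes, and the median with that control alone was -0.28. WT controls 1 and 2 lay above the other 4 WT libraries in 6 of 19, against 12.6% of all genes. The summed level was 437, 415 and 365 FPKM in controls and 342, 350 and 330 FPKM after PTX.

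*Usp18*, a brake on interferon signalling, was at 1.74, 1.62 and 1.82 FPKM in controls and 0.96, 0.90 and 0.86 FPKM after PTX (log2 fold change -0.93 ± 0.202 SE, adjusted p = 0.173, edgeR). *Tap1*, which carries peptides to MHC class I molecules, was at 2.30, 3.20 and 2.17 FPKM in controls and 1.6, 1.44 and 1.39 FPKM after PTX. *Ifit1*, an inhibitor of viral translation, was at 8.12, 9.45 and 9.44 FPKM in controls and 6.31, 5.60 and 4.73 FPKM after PTX. WT control 3 was the highest control in *Usp18* and the lowest in *Tap1*, and it was above every PTX mouse in all 3 genes. *Oas1a*, a sensor of double-stranded RNA, was nonoverlapping and lower with a log2 fold change of -0.69. *Bst2*, *Irf7*, *Oasl2*, *H2-K1* and *Ifit3*, named after their values were seen, were nonoverlapping and lower, with log2 fold changes of -0.27 to -0.52. *Bst2*, which tethers virus particles to the membrane, was at 11.3, 8.64 and 10.7 FPKM in controls and 6.66, 7.49 and 7.14 FPKM after PTX. The groups overlapped in *H2-D1*, *B2m* and *Isg15*, and *Ifit2* was the member above 0 (log2 fold change 0.13).

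Other genes of innate immunity stood on the same side. *Ifitm3*, an interferon-induced membrane protein outside the list and among the 10 nonoverlapping lower genes with the smallest p, was at 46.1, 39.0 and 36.1 FPKM in controls and 30.7, 32.6 and 24.9 FPKM after PTX. Of 11 cytokine and Toll-like signalling genes, 3 were nonoverlapping and lower and 0 higher (median -0.195, or -0.28 against WT control 3 alone). *Myd88*, the adaptor of Toll-like receptors, was at 4.59, 4.37 and 4.51 FPKM in controls and 3.14, 3.88 and 3.20 FPKM after PTX. *Tnfrsf1a*, a receptor of TNF, was at 10.4, 11.1 and 10.5 FPKM in controls and 9.08, 8.98 and 7.80 FPKM after PTX. *Ccl2*, a chemokine that attracts monocytes, was at 1.72, 3.77 and 1.71 FPKM in controls and 1.61, 0.89 and 0.59 FPKM after PTX. *Tlr4*, a receptor of the same list named after its values were seen, overlapped (log2 fold change -0.089).

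**Figure D3:**
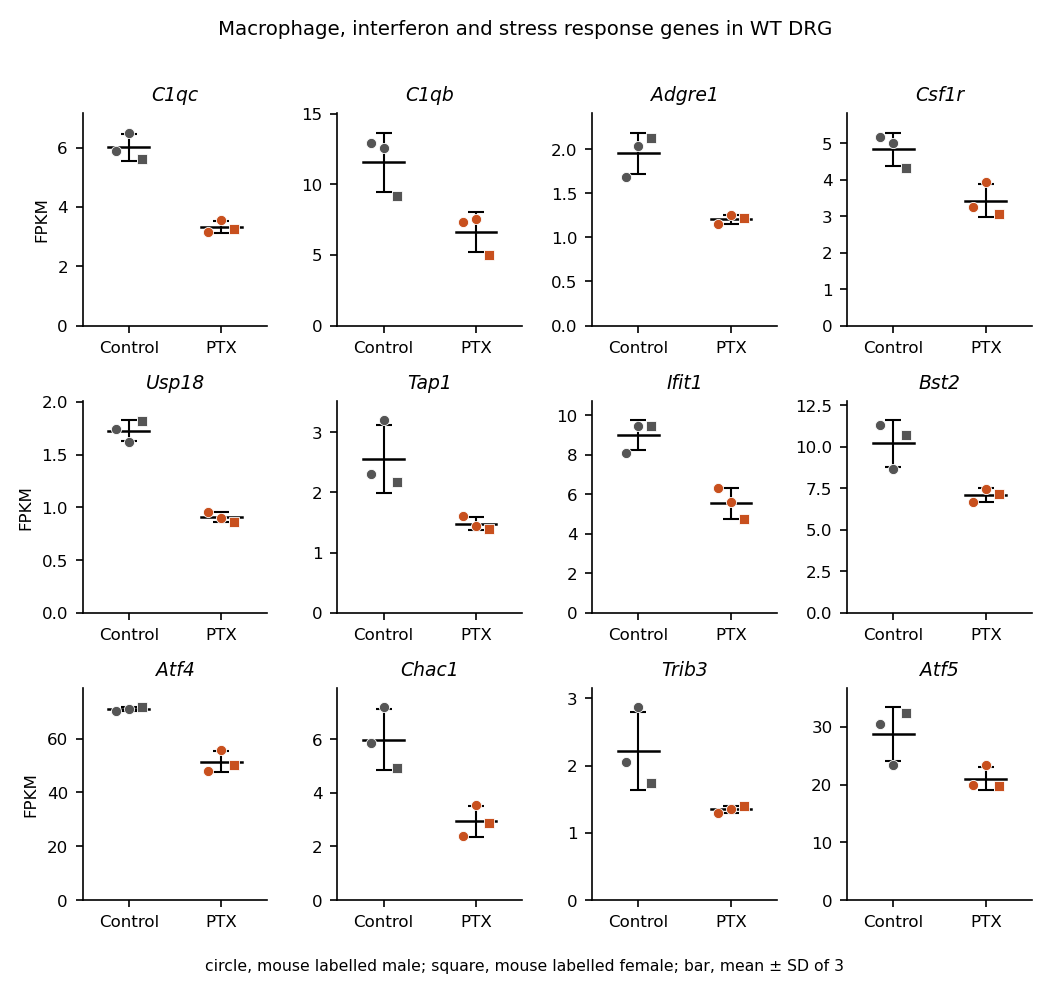
FPKM of macrophage genes (top row), interferon-stimulated genes (middle row) and stress response genes (bottom row) in each WT library (linear axes from 0). Circles are mice labelled male, squares mice labelled female, and bars the mean ± SD of 3. In each panel all 3 PTX mice lay below all 3 controls, as in *Atf4* with 48.1 to 55.8 FPKM against 70.2 to 71.7 FPKM, and in *Atf5* the gap was 23.36 against 23.43 FPKM.

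Several genes of the integrated stress response were lower as well. In this response, cells short of amino acids or burdened with unfolded protein raise the factor ATF4, which drives *Chac1*, *Trib3*, *Asns* and *Atf5*. Of 16 genes of this response and the related unfolded protein response, 7 were nonoverlapping and lower and 1 was nonoverlapping and higher, with a median of -0.17, or -0.06 against WT control 3 alone. In 6 of 16, WT controls 1 and 2 lay above the other 4 WT libraries, against 12.6% of all genes. DESeq2 called 3 lower. *Atf4* was at 70.2, 70.9 and 71.7 FPKM in controls and 48.1, 55.8 and 50.4 FPKM after PTX (log2 fold change -0.47 ± 0.091 SE, adjusted p = 0.173, edgeR). *Chac1*, which degrades glutathione, was at 5.85, 7.20 and 4.92 FPKM in controls and 2.39, 3.53 and 2.89 FPKM after PTX. *Trib3*, a pseudokinase that feeds back on ATF4, was at 2.06, 2.87 and 1.74 FPKM in controls and 1.3, 1.35 and 1.40 FPKM after PTX. The controls varied little in *Atf4*, whereas controls 1 and 2 were above control 3 in *Chac1* and *Trib3*. Against WT control 3 alone the log2 differences were -0.44 for *Atf4*, -0.63 for *Chac1* and -0.23 for *Trib3*. *Atf5* was at 30.4, 23.43 and 32.3 FPKM in controls and 20.0, 23.36 and 19.8 FPKM after PTX, so the closest values nearly met.

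Other members of the list differed less. *Asns*, which makes asparagine, *Xbp1*, a factor of the unfolded protein response, and *Pdia4*, a folding enzyme, were nonoverlapping and lower by -0.23, -0.12 and -0.09 on the log2 scale. *Dnajb9*, a cochaperone of the endoplasmic reticulum, was the nonoverlapping higher member, at 0.22. The groups overlapped in the chaperones *Hspa5*, *Hsp90b1* and *Calr* and in *Ddit3*, with log2 fold changes of -0.23 to 0.11. These genes, *Atf4*, *Chac1*, *Trib3* and *Atf5* excepted, were named after their values were seen. Among 7 heat shock genes (median 0.13, or -0.02 against WT control 3 alone), *Hspa8*, a constitutive chaperone of the cytosol, was at 640, 593 and 585 FPKM in controls and 736, 715 and 782 FPKM after PTX (log2 fold change 0.30 ± 0.119 SE). *Hsph1* was also nonoverlapping and higher, at 0.145, but at -0.02 against WT control 3 alone.

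The matches of regulatory elements in promoters of these lists were counted in the same way. The C/EBP-ATF element TGATGNAA, to which ATF4 binds, was found in the windows of *Chac1*, *Trib3*, *Asns* and *Herpud1*, 4 of 16 genes (25%) against 4.51% of all genes. Of these, *Herpud1* had a log2 fold change near 0 (-0.004). The interferon-stimulated response element, searched as TTTCNNTTTC, was found in *Ifit1*, *Ifit3*, *Bst2*, *Oas1a*, *B2m*, *Isg15* and *Stat2*, 7 of 16 genes with a window (43.8%) against 3.99% of all genes, and matches overlapped each other in *Bst2*, *Isg15* and *Oas1a*. Windows of 2 genes from each list are shown with the element in capitals, on either strand. *Chac1* is at chr2:119350992-119351291 (plus strand), *Trib3* at chr2:152344011-152344310 (minus), *Ifit1* at chr19:34640639-34640938 (plus) and *Bst2* at chr8:71537423-71537722 (minus).
Chac1: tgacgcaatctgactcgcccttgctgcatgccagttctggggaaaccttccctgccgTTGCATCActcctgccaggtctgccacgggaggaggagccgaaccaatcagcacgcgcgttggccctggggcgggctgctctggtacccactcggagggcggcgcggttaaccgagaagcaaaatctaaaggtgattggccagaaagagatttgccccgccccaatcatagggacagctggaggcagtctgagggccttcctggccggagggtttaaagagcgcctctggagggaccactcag
Trib3: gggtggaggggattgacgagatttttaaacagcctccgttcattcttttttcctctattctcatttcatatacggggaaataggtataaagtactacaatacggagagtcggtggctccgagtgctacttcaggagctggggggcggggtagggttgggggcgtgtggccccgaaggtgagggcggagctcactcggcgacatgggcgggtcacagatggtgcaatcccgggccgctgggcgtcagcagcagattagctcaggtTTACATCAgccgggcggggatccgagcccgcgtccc
Ifit1: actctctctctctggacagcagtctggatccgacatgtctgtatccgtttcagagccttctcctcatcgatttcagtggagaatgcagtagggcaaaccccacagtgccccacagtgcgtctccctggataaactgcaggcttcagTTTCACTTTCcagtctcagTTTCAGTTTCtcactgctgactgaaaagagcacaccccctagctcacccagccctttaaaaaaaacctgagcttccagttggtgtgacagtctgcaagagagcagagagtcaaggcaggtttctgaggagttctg
Bst2: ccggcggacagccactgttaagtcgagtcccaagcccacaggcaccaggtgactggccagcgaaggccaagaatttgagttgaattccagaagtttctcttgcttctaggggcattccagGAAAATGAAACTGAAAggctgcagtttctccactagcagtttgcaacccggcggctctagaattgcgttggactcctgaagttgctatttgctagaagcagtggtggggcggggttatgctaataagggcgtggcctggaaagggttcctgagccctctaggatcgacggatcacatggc
The *Ifit1* window holds 2 elements at 104 and 85 bases before the start. Members without a match, such as *Usp18*, *Tap1* and *Atf5*, were lower too.

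Axon injury genes were the pathway list with the lowest median, but no member had nonoverlapping groups. Damaged sensory neurons switch on the factors ATF3, JUN and SOX11, growth proteins such as GAP43 and SPRR1A and the peptides galanin and NPY. All 14 tested members had a log2 fold change below 0 (median -1.0). Of these, 12 were lower at an unadjusted p under 0.05 (edgeR), against 6.91% of all genes. In 13 of 14, WT controls 1 and 2 lay above all the other WT libraries, against 12.6% of all genes. With WT control 3 alone the median was -0.18. *Gal* (galanin) was at 49.5, 130.3 and 24.1 FPKM in controls and 21.7, 35.1 and 14.9 FPKM after PTX. *Gap43* was at 138, 209 and 110.5 FPKM in controls and 105, 115 and 98.2 FPKM after PTX, and DESeq2 called it (adjusted p = 0.0367). In both genes control 3 lay within the range of the PTX mice.

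The same order was wider in members named after their values were seen. *Sprr1a* was at 57.3, 118 and 0.23 FPKM in controls and 1.38, 14.9 and 0.21 FPKM after PTX. *Atf3* was at 34.8, 60.2 and 2.79 FPKM in controls and 5.09, 11.3 and 1.90 FPKM after PTX. *Npy* was at 16.4, 20.1 and 0.19 FPKM in controls and 0.54, 3.24 and 0.40 FPKM after PTX. PTX mouse 2 was the highest PTX mouse in these genes, and the libraries labelled female were the lowest of each group. The log2 fold changes were -3.38 ± 0.720, -2.14 ± 0.505 and -3.08 ± 0.670 (SE), and -0.995, -0.65 and 0.87 against WT control 3 alone, so the sign of *Npy* turned. *Csf1*, which injured neurons release to expand microglia and macrophages, was at 6.09, 11.3 and 3.51 FPKM in controls and 3.62, 4.39 and 2.94 FPKM after PTX. *Jun* was at 36.0, 50 and 24.2 FPKM in controls and 30.65, 28.9 and 30.8 FPKM after PTX. The p53 target *Cdkn1a*, an inhibitor of the cell cycle, was at 33.0, 32.5 and 17.7 FPKM in controls and 18.9, 20.5 and 15.0 FPKM after PTX, and the chaperone *Hspb1* was at 177, 188 and 105 FPKM in controls and 108, 116 and 97.2 FPKM after PTX. *Cacna2d1*, the calcium channel subunit that binds gabapentin, was the exception to this order, with 13.9, 26.6 and 14.5 FPKM in controls and 16.9, 15.9 and 17.0 FPKM after PTX. The part of the injury genes of controls 1 and 2 in the other results was not tested beyond the values given against WT control 3.

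**Figure D4:**
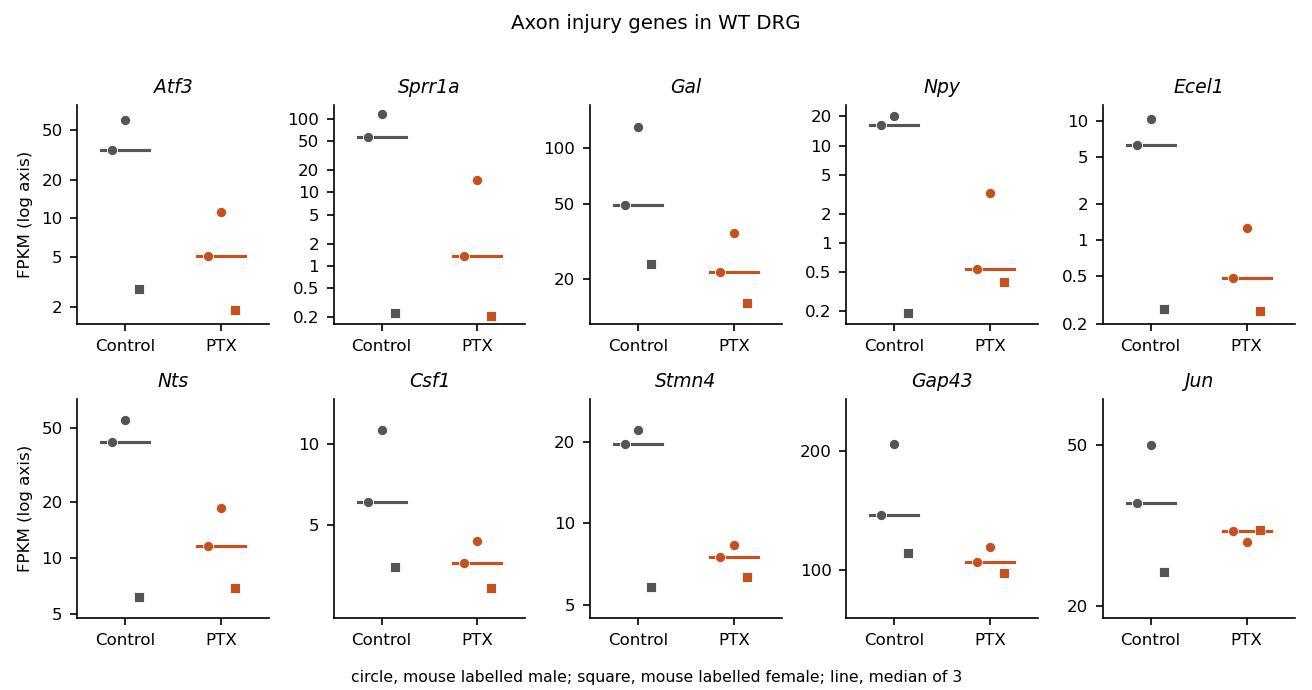
FPKM of 10 axon injury genes in each WT library, on logarithmic axes. Circles are mice labelled male, squares mice labelled female, and lines the median of 3. WT controls 1 and 2 (gray circles) were the highest libraries in every panel, and WT control 3 (gray square) lay within or below the range of the PTX mice, as in *Atf3* at 34.8, 60.2 and 2.79 FPKM.

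Among 12 sensory neuropeptide genes, 0 had nonoverlapping groups and the median was -0.34, or -0.02 against WT control 3 alone. At an unadjusted p under 0.05 (edgeR), 5 were lower, against 6.91% of all genes. In 6 of 12 genes WT controls 1 and 2 lay above the other 4 WT libraries, against 12.6% of all genes. *Calca*, which encodes the vasodilator CGRP, was at 748.5, 987.5 and 647 FPKM in controls and 666, 669 and 557 FPKM after PTX. The log2 fold change was -0.33 ± 0.111 (SE; adjusted p = 0.288, edgeR) and -0.20 against WT control 3 alone. *Tac1*, the gene of substance P, named after its values were seen, was at 70.0, 94.3 and 59.8 FPKM in controls and 59.8, 66.0 and 49.5 FPKM after PTX. PTX mice 1 and 2 lay between control 3 and control 1 in *Calca*, and PTX mouse 2 did so in *Tac1*. Of the 8 peptidergic markers, 7 were below 0 (median -0.26, or -0.11 against WT control 3 alone) and 0 were nonoverlapping.

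Markers of other sensory neurons had medians above 0, each smaller against WT control 3 alone. Among 14 genes of nonpeptidergic nociceptors and itch neurons, 11 were above 0 (median 0.21, or 0.09 against that control). *Plxnc1*, a semaphorin receptor, was nonoverlapping and higher, at 24.1, 26.8 and 32.1 FPKM in controls and 34.6, 32.5 and 41.4 FPKM after PTX (log2 fold change 0.385 ± 0.079 SE, adjusted p = 0.173 with edgeR and 0.0021 with DESeq2). All 5 genes of C low-threshold mechanoreceptors were above 0 (median 0.33), but the median was 0.001 against WT control 3 alone. *Th*, which marks these cells, was at 33.7, 22.3 and 44.0 FPKM in controls and 37.3, 43.0 and 42.5 FPKM after PTX, so control 3 was above all PTX mice. Among 15 genes of large A-fibre neurons, 12 were above 0 (median 0.12, or 0.05 against WT control 3 alone). *Ntrk2*, the receptor of BDNF, was nonoverlapping and higher, at 8.43, 8.66 and 8.79 FPKM in controls and 9.33, 9.63 and 10.2 FPKM after PTX. *Cacna1h*, a T-type calcium channel, was nonoverlapping and lower, at 5.70, 5.75 and 5.87 FPKM in controls and 5.13, 5.23 and 4.92 FPKM after PTX. WT controls 1 and 2 lay below the other 4 WT libraries in 8 of the 15 A-fibre genes, 5 of the 14 nonpeptidergic genes and 4 of the 5 mechanoreceptor genes, against 17.4% of all genes.

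Pan-neuronal markers moved in both directions. The median over 16 was 0.04, or 0.07 against WT control 3 alone, with 2 nonoverlapping and higher and 1 lower. *Syt1*, a calcium sensor of transmitter release, was at 27.0, 28.2 and 30.4 FPKM in controls and 32.8, 31.0 and 37.7 FPKM after PTX. *Elavl4*, a neuronal RNA-binding protein, was at 35.2, 53.3 and 56.4 FPKM in controls and 57.3, 56.5 and 63.0 FPKM after PTX, where control 1 was far below the others. *Prph* (peripherin), an intermediate filament of small neurons, was at 827, 833.5 and 689 FPKM in controls and 667, 672 and 633 FPKM after PTX. Neurofilament genes overlapped, with *Nefl* at 1248 to 1372 FPKM in controls and 1332 to 1490 FPKM after PTX, a value named after it was seen.

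Ion channel lists held at most 3 nonoverlapping genes in either direction, to be read against 6.78% higher and 7.42% lower over all genes. Of 10 voltage-gated sodium channel genes, 2 were nonoverlapping and higher. *Scn3b*, an accessory subunit, was at 17.9, 16.7 and 18.4 FPKM in controls and 21.0, 20.5 and 22.3 FPKM after PTX (log2 fold change 0.27 ± 0.065 SE, adjusted p = 0.195 with edgeR and 0.0328 with DESeq2). Against WT control 3 alone the difference was 0.26. *Scn8a*, the pore subunit of nodes of Ranvier, was at 8.52, 8.70 and 8.86 FPKM in controls and 9.05, 9.14 and 9.67 FPKM after PTX. The nociceptor channels *Scn9a*, *Scn10a* and *Scn11a* overlapped, with log2 fold changes of 0.31, 0.10 and 0.22, and were named after their values were seen. Of 24 voltage-gated and two-pore potassium channel genes, 1 was nonoverlapping and higher, *Kcna2*, a channel beside the nodes, at 23.9, 21.35 and 25.6 FPKM in controls and 27.06, 25.97 and 25.93 FPKM after PTX.

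Of 13 voltage-gated calcium channel genes, 3 were nonoverlapping and higher and 2 were lower. *Cacnb4*, a beta subunit, was at 9.6, 12.6 and 12.2 FPKM in controls and 15.0, 12.8 and 13.8 FPKM after PTX, and *Cacnb3*, another beta subunit, was at 83.4, 83.6 and 75.2 FPKM in controls and 71.9, 67.3 and 71.0 FPKM after PTX. *Cacna1d*, an L-type channel, was at 0.44, 0.47 and 0.50 FPKM in controls and 0.58, 0.52 and 0.60 FPKM after PTX. Of 14 TRP, Piezo and acid-sensing channel genes, *Asic3*, an acid sensor of muscle and skin afferents, was nonoverlapping and higher (38.5 to 41.9 FPKM in controls and 42.6 to 47.2 FPKM after PTX). *Asic2* was lower (22.6 to 24.6 FPKM in controls and 21.2 to 22.4 FPKM after PTX). *Trpv1* and *Trpa1*, the heat and irritant channels of nociceptors, overlapped, with log2 fold changes of -0.19 and -0.02. Receptors for opioids, cannabinoids and GABA-B had 0 nonoverlapping members of 5.

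*Gpr37l1*, the receptor of SGCs that the study is about (chromosome 1 of GRCm38, 135160234 to 135167681, minus strand), was at 35.7, 34.9 and 27.6 FPKM in controls and 14.6, 31.7 and 25.03 FPKM after PTX. The lowest level was in PTX mouse 1, and the groups overlapped between control 3 and PTX mouse 2. Its log2 fold change was -0.465 ± 0.244 (SE; adjusted p = 0.423, edgeR), and -0.02 against WT control 3 alone. *Gpr37*, its close relative, was at 2.16, 2.64 and 2.68 FPKM in controls and 2.35, 2.67 and 2.45 FPKM after PTX. *Psap*, the precursor of a proposed ligand of both receptors, was at 589, 557 and 578 FPKM in controls and 555, 575 and 557 FPKM after PTX. Neither gene separated the groups.

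SGCs buffer potassium through the inward rectifier channel encoded by *Kcnj10*, which was at 16.0, 22.5 and 14.6 FPKM in controls and 16.8, 16.6 and 16.8 FPKM after PTX, with a log2 fold change of -0.07 ± 0.143 (SE). *Kcnj3*, which encodes a G protein-gated channel, was at 4.46, 3.93 and 6.00 FPKM in controls and 6.31, 6.11 and 7.03 FPKM after PTX. In mouse trigeminal ganglia, the study reports *Kcnj3* in sensory neurons and not in SGCs. All 3 PTX mice were above all controls in *Kcnj3*, and control 3 was within 0.2 FPKM of PTX mouse 2. The log2 fold change of *Kcnj3* was 0.445 ± 0.101 (SE; adjusted p = 0.173 with edgeR and 0.0089 with DESeq2), and 0.22 against WT control 3 alone. It was the nonoverlapping member among 9 inward rectifiers.

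SGC markers as a whole had a median of -0.03, or 0.12 against WT control 3 alone, with 0 nonoverlapping members of 12. *Fabp7*, a fatty acid binding protein of these cells, was at 221, 223 and 145 FPKM in controls and 164, 183 and 98.7 FPKM after PTX. Within each labelled sex *Fabp7* was lower after PTX, and its log2 fold change was -0.42 ± 0.106 (SE; adjusted p = 0.197 with edgeR and 0.0109 with DESeq2). *Apoe* overlapped at 711 to 1080 FPKM in controls and 731.5 to 888.5 FPKM after PTX. *Glul* and *Sox2*, named after their values were seen, were at 0.10 and 0.165 on the log2 scale. Myelinating Schwann cell genes had 0 nonoverlapping members of 16 and a median of -0.07, or 0.03 against WT control 3 alone. *Pmp22*, a protein of peripheral myelin, was at 689, 625 and 552 FPKM in controls and 635, 617 and 501 FPKM after PTX. In the list of nonmyelinating Schwann cells, 3 of 6 genes were above 0 and 3 below (median 0.03, or 0.06 against WT control 3 alone). Its nonoverlapping member was *Ngfr*, the low-affinity neurotrophin receptor, lower at 213, 283 and 202 FPKM in controls and 195, 192 and 163.5 FPKM after PTX.

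**Figure D5:**
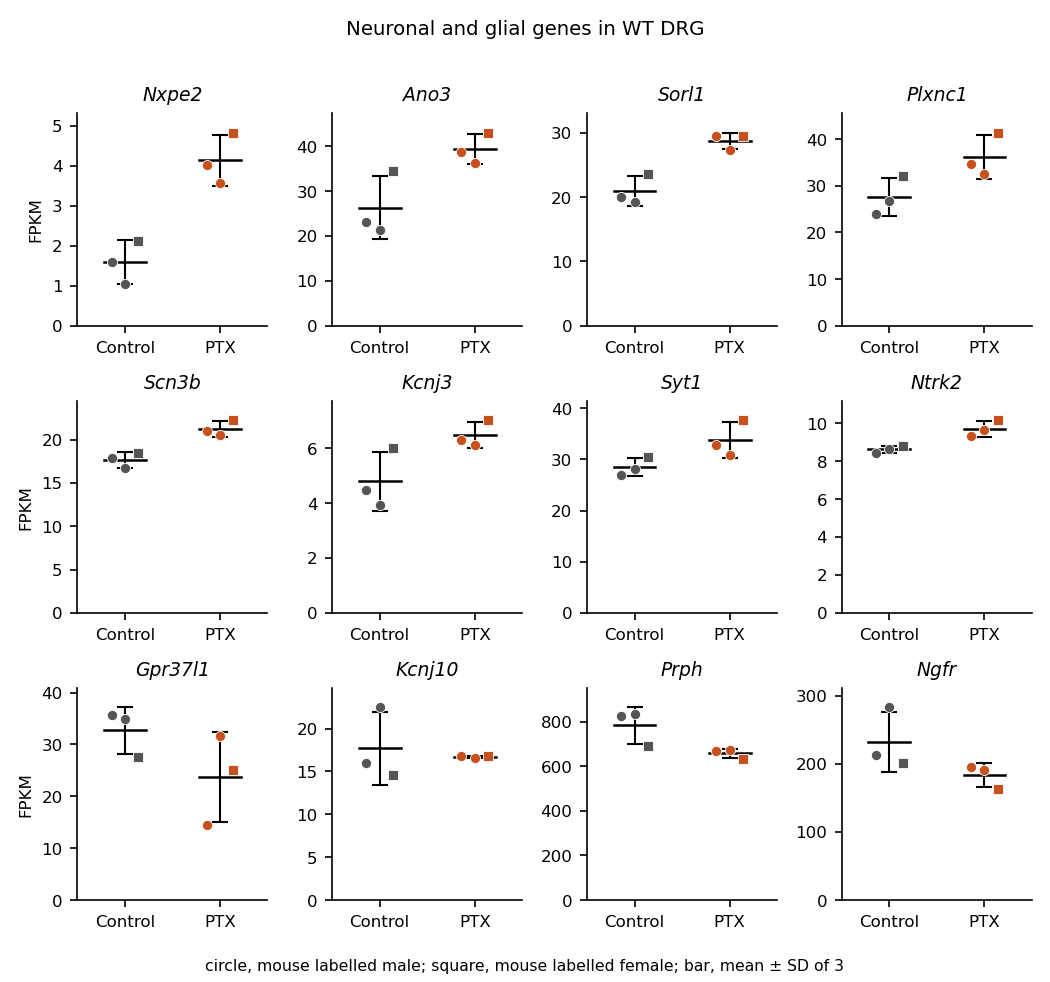
FPKM of neuronal and glial genes in each WT library (linear axes from 0). Circles are mice labelled male, squares mice labelled female, and bars the mean ± SD of 3. *Nxpe2*, *Ano3*, *Sorl1*, *Plxnc1*, *Scn3b*, *Kcnj3*, *Syt1* and *Ntrk2* were higher in all 3 PTX mice than in any control, *Prph* and *Ngfr* were lower, and *Gpr37l1* and *Kcnj10* overlapped.

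Over all tested genes, the 10 nonoverlapping genes with the smallest p and a mean of at least 2 FPKM were taken in each direction. They include *Nr1d2*, *C1qc*, *Atf4* and *Ifitm3*, described above, and *Col18a1*. The lowest p among the higher genes belonged to *Nxpe2*, a gene of unknown role in DRG, at 1.6, 1.05 and 2.13 FPKM in controls and 4.03, 3.56 and 4.83 FPKM after PTX (log2 fold change 1.40 ± 0.176 SE, adjusted p = 0.0516, edgeR). *Sorl1*, a sorting receptor, was at 20.0, 19.2 and 23.5 FPKM in controls and 29.45, 27.3 and 29.5 FPKM after PTX. *Ano3*, a membrane protein of the anoctamin family, was at 23.1, 21.4 and 34.4 FPKM in controls and 38.7, 36.35 and 43.0 FPKM after PTX. WT control 3 was the highest control in all 3 of these genes. *Paqr5*, a membrane progesterone receptor, *Scin*, which cuts actin filaments, *Hapln1*, a linker of hyaluronan and proteoglycans, *Gpd1l*, *Jam2* and the noncoding *D130009I18Rik* had log2 fold changes of 0.33 to 0.72, each with an adjusted p of 0.173 (edgeR). *Ano3* shares exonic sequence with *Muc15* on the opposite strand, and *Sorl1* with *Gm16214*, and whether strand was used in counting is not given in the sources used here. Other named genes share exonic sequence with opposite-strand genes too, among them *Tap1*, *Atf5*, *Dbp*, *Myd88* and *Col4a2*. *Hoxd4* shares exons with *Hoxd3* on its own strand.

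On the lower side, *Sdc1*, a heparan sulfate proteoglycan of the cell surface, was at 14.2, 21.9 and 9.06 FPKM in controls and 8.02, 8.17 and 6.21 FPKM after PTX (log2 fold change -0.97 ± 0.172 SE, adjusted p = 0.173, edgeR). *Litaf*, a protein of late endosomes whose mutation causes an inherited neuropathy, was at 5.74, 6.34 and 5.67 FPKM in controls and 4.85, 4.31 and 3.74 FPKM after PTX. It overlaps *Snn* on the opposite strand. *Gm15459*, *Gm6139* and *Gm6311* are annotated as processed pseudogenes, whose reads may come from parent genes. *Gm15459* was at 351, 389 and 387 FPKM in controls and 118, 119 and 111 FPKM after PTX. In the KO libraries it was at 385, 116 and 388 FPKM in controls 1, 2 and 3 and at 113 and 101.5 FPKM after PTX. KO control 2, which had no PTX, was therefore at the level of the PTX mice. *Pcdhgb6* shares exons with the other protocadherin gamma genes, so its level is uncertain.

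Tubulins, the target of PTX, showed 0 nonoverlapping members of 13 and a median of -0.20. In 10 of 13, WT controls 1 and 2 lay above the other WT libraries, against 12.6% of all genes. The median of the tubulins against WT control 3 alone was 0.03. *Tuba1a*, the most abundant alpha-tubulin here, was at 2347, 2354 and 1841 FPKM in controls and 1899, 1902 and 1880 FPKM after PTX. *Tubb3*, the neuronal beta-tubulin, was at 1436, 1556 and 1144 FPKM in controls and 1169, 1241 and 975 FPKM after PTX. *Tubb6*, named after its values were seen, differed most, at 10.2, 14.2 and 5.55 FPKM in controls and 5.58, 5.98 and 3.88 FPKM after PTX. In *Tuba1a* and *Tubb6*, control 3 was near or among the PTX mice. Of 17 microtubule-associated protein genes, 8 were above 0 (median -0.006, or 0.03 against WT control 3 alone). The 2 nonoverlapping and lower members, against 7.42% of all genes, were *Stmn1*, which destabilizes microtubules, and *Mapt*, which encodes tau. Their log2 fold changes were -0.24 and -0.07, and -0.035 and -0.013 against WT control 3 alone. *Mapt* was at 58.0 to 58.9 FPKM in controls and 55.3 to 56.0 FPKM after PTX.

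Among 16 motors of axonal transport, 3 were nonoverlapping and higher and 1 lower, against 6.78% and 7.42% of all genes. *Dync1i2*, a dynein chain, was at 41.6, 45.8 and 49.97 FPKM in controls and 51.5, 50.4 and 55.4 FPKM after PTX. *Dync1i1* and the kinesin *Kif5c* were higher by 0.13 each on the log2 scale, and the dynactin subunit *Dctn1* was lower by -0.07 but at 0.03 against WT control 3 alone. Of 10 genes of the axon degeneration pathway, *Mapk9*, a JNK kinase, was nonoverlapping and higher at 25.2, 30.6 and 29.5 FPKM in controls and 33.0, 31.7 and 32.0 FPKM after PTX. *Sarm1*, the NAD-cleaving executioner of axons, and *Nmnat2*, its opponent, overlapped with log2 fold changes of -0.15 and 0.07, and were named after their values were seen.

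Transcripts of the mitochondrial genome were all above 0. The log2 fold changes of the 13 genes ran from 0.08 to 0.50 (median 0.20, and 0.25 against WT control 3 alone). Of the 13, 2 were nonoverlapping and higher, against 6.78% of all genes. *mt-Cytb*, of complex III, was at 3281, 3324 and 3549 FPKM in controls and 3895, 3586 and 4372 FPKM after PTX. *mt-Co1*, of complex IV, was at 6482, 7443 and 7094 FPKM in controls and 7909, 7694 and 8540 FPKM after PTX. PTX mouse 2 came close to the highest control in both genes, and the adjusted p-values were 0.448 and 0.499 (edgeR). The 77 nuclear genes of the respiratory chain had a median of -0.14, or -0.07 against WT control 3 alone, with 2 nonoverlapping and higher (*Ndufs1* and *Uqcrc2*) and 2 lower (*Atp5g1* and *Atp5g2*). The 76 cytosolic ribosomal protein genes had a median of -0.21, and 74 were below 0. Of these, 10 were nonoverlapping and lower, against 7.42% of all genes. Among them, *Rpl27* was at 61.4, 48.25 and 45.9 FPKM in controls and 43.5, 44.95 and 37.8 FPKM after PTX. The median of this list was -0.08 against WT control 3 alone.

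Matrix genes leaned lower. Of 28 collagen genes tested, 7 were nonoverlapping and lower and 1 was higher, against 7.42% and 6.78% of all genes. The median was -0.26, or -0.27 against WT control 3 alone and -0.095 among the libraries labelled male. *Col18a1*, a collagen of basement membranes, was at 5.65, 5.69 and 4.29 FPKM in controls and 3.36, 3.88 and 2.94 FPKM after PTX (log2 fold change -0.615 ± 0.124 SE, adjusted p = 0.173 with edgeR and 0.0014 with DESeq2). *Col4a2*, a main chain of the basement membrane network, was at 12.7, 13.2 and 11.3 FPKM in controls and 8.75, 8.79 and 7.06 FPKM after PTX. *Col7a1*, the anchoring fibril collagen, was lower at 0.79 to 1.31 FPKM in controls and 0.64 to 0.77 FPKM after PTX. *Col25a1*, a transmembrane collagen of neurons, was the higher member at 0.41 to 0.58 FPKM in controls and 0.66 to 0.74 FPKM after PTX. The fibril collagens *Col1a1* and *Col3a1*, named after their values were seen, overlapped, and fibroblast markers had 0 nonoverlapping members of 11.

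Of 13 endothelial genes, *Esam*, an adhesion molecule of vessel walls, was nonoverlapping and lower at 7.48, 8.04 and 6.34 FPKM in controls and 5.71, 5.04 and 4.82 FPKM after PTX (log2 fold change -0.49 ± 0.103 SE, adjusted p = 0.173 with edgeR and 0.0046 with DESeq2). *Plvap*, which forms diaphragms of permeable vessels, was lower too (5.22 to 5.73 FPKM in controls and 3.48 to 4.57 FPKM after PTX). *Tek*, the angiopoietin receptor, was nonoverlapping and higher at 1.05, 1.67 and 1.55 FPKM in controls and 1.93, 2.03 and 1.77 FPKM after PTX. The pan-endothelial markers *Pecam1* and *Cdh5*, named after their values were seen, overlapped. Of 10 mural cell genes, *Cspg4*, a proteoglycan of pericytes, was lower (1.16 to 1.36 FPKM in controls and 0.83 to 1.09 FPKM after PTX).

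In cholesterol synthesis, 6 of 20 genes were nonoverlapping and lower and 1 was higher, against 7.42% and 6.78% of all genes. The list median was -0.10, or -0.06 against WT control 3 alone. *Mvk*, an enzyme of the mevalonate pathway, was at 21.7, 21.0 and 18.8 FPKM in controls and 15.9, 17.0 and 14.35 FPKM after PTX (adjusted p = 0.173 with edgeR and 0.0067 with DESeq2). *Mvd*, which acts after it, was at 33.0, 31.9 and 25.7 FPKM in controls and 22.8, 25.3 and 19.8 FPKM after PTX, and *Fdps* was at 57.9, 49.8 and 46.6 FPKM in controls and 45.1, 44.5 and 38.7 FPKM after PTX. *Sc5d*, a late enzyme, was the higher member (26.6 to 34.2 FPKM in controls and 34.3 to 35.4 FPKM after PTX).

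The remaining pathway lists held at most 2 nonoverlapping members in either direction. Nonoverlapping members were 2 lower of 9 immediate early genes (*Ier2* and *Btg2*), 1 higher (*Sesn1*) and 1 lower (*Sesn2*) of 12 p53 targets, 1 lower of 12 cell cycle genes (*Mcm6*), 1 higher (*Ntrk2*) and 1 lower (*Ngfr*) of 13 neurotrophic genes and 1 higher (*Hoxb3*) and 2 lower (*Hoxd4* and *Hoxb8*) of 26 Hox genes. In 8 NRF2 antioxidant genes and 12 imprinted genes there were 0. The antioxidant gene *Srxn1* was at 154, 189 and 101 FPKM in controls and 113, 113 and 104 FPKM after PTX, with the order of the injury genes. The imprinted noncoding RNA *H19*, named after its values were seen, was at 14.8, 12.7 and 36.5 FPKM in controls and 10.6, 10.4 and 16.2 FPKM after PTX, lower within each labelled sex and called by DESeq2 (adjusted p = 0.0094).

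Genes of other tissues varied between libraries of both groups. Of 15 skeletal muscle genes, 11 were tested, with a median of -2.55, or -4.44 against WT control 3 alone, and 0 nonoverlapping. *Acta1*, the actin of skeletal muscle, was at 168, 5.28 and 153 FPKM in controls and 17.7, 54.6 and 0.84 FPKM after PTX, and *Tnnt3* was at 90.4, 2.13 and 71.5 FPKM in controls and 7.93, 27.2 and 0.47 FPKM after PTX. Control 2 was thus below PTX mice 1 and 2. The 7 neutrophil genes had a median of -1.0, or -1.73 against WT control 3 alone, with 0 nonoverlapping and *S100a9* at 14.75, 39.3 and 14.5 FPKM in controls and 25.5, 7.49 and 4.36 FPKM after PTX. The 6 red cell genes had a median of -0.48, or -1.34 against WT control 3 alone, and *Hba-a1* was at 51.2, 38.1 and 73.85 FPKM in controls and 69.5, 23.1 and 24.55 FPKM after PTX. Of 11 genes of spinal cord glia, 6 were tested and 0 were nonoverlapping, and the oligodendrocyte markers *Mog* and *Opalin* stayed at or below 0.33 FPKM in all 6 libraries. Meningeal genes had 0 nonoverlapping members of 6, with *Ptgds* at 215, 56.3 and 153 FPKM in controls and 171, 100.4 and 75.6 FPKM after PTX. Few lymphocyte, mast cell, fat and bone genes were tested (2 of 14, 4 of 5, 1 of 7 and 1 of 6), and 0 of them were nonoverlapping. The part of these tissues in the other results was not tested.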

How the data were processed

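DRG RNA was sequenced as poly(A) libraries from 11 mouse samples, of which 6 were WT. The submitters' processing notes name cutadapt, FastQC, HISAT2, StringTie and mm10, with no roles or versions. The authors deposited 1 table with expected counts and FPKM per gene and library. Here, expected counts were rounded and tested with edgeR 4.0.16 (quasi-likelihood test, TMM, 1 mean per group and labelled sex, all 11 libraries in 1 fit), and p-values were adjusted by the Benjamini-Hochberg method over 15099 genes. Replicate 3 was the female of each WT group, so its number and its sex cannot be told apart. FPKM values are as deposited. Alternatives used DESeq2 1.42.0, limma 3.58.1, other filters and fewer libraries.

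Members and the 52 gene lists were chosen with earlier results of these data known. The text names genes past the threshold, up to 4 nonoverlapping members of each list with the largest change or otherwise its 2 most abundant members, the 10 nonoverlapping genes with the smallest p in each direction at a mean of at least 2 FPKM, *Gpr37l1*, *Gpr37*, *Psap*, *Kcnj10* and *Kcnj3*, and sex-linked genes. Other genes were chosen after their values were seen. Gene positions are those of the deposited table, and gene overlaps were taken from GENCODE M21 (GRCm38). Some members of the lists are not reported here.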

Additional observations from a re-analysis of the deposited data

Results flagged for a closer look

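In 6 of the 91 named genes with nonoverlapping WT groups, both KO PTX mice lay beyond all KO controls in the opposite direction. How often this pattern arises by chance, or over all genes, was not tested. The difference between genotypes in the 6 genes was picked from that pattern and not from a test. The WT change minus the KO change on the log2 scale was -1.586 for *Aif1* (-0.94 in WT and 0.65 in KO), -0.412 for *Stmn1* (-0.24 and 0.175), -0.141 for *Mapt* (-0.07 and 0.07) and -0.265 for *Cacnb3* (-0.205 and 0.06). It was -0.826 for *Sesn2* (-0.565 and 0.26) and -1.182 for *Pcdhgb6* (-0.62 and 0.56). The interaction term of the edgeR fit, read afterwards, gave an adjusted p of 0.349 for *Pcdhgb6* and 0.729 for each of the other 5 genes, so none passed. The KO PTX group held 2 libraries, and *Pcdhgb6* shares exons with its neighbours.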

How the results depend on the processing

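The count of 1 gene higher and 0 lower became 143 and 169 with DESeq2, 2 and 4 with the 6 WT libraries alone, and 2 and 2 with DESeq2 size factors. It was 0 and 0 with limma on log2(FPKM + 1) (895 and 973 at an unadjusted p under 0.05), with a minimum mean of 2 FPKM (819 and 855) and with no sex covariate (872 and 942), all against 1003 and 1044 in the edgeR fit as reported. With a replicate block it was 1 and 2. The minimum of 2 FPKM left *Per3*, at a mean of 1.477 FPKM, untested, so the 0 higher there says nothing about *Per3*. Deviations from the group mean correlated at -0.0487, -0.158 and 0.0303 between WT samples with the same number. Deviations within a group sum to 0 and replicate 3 is the female of each WT group. These values therefore cannot decide whether the numbers stand for a shared factor. Leaving out 1 library at a time gave 0 to 40 higher and 0 to 51 lower, with 40 and 51 without WT control 3, 4 and 7 without WT control 2, 1 and 2 without WT control 1, 2 and 0 without PTX mouse 3 and 0 and 0 without PTX mouse 1 (529 and 584 at an unadjusted p under 0.05) or PTX mouse 2 (841 and 915). Among choices made after seeing the data, WT control 3 as the only control, whose spread is then assumed to be that of the other groups, gave 3 and 5, and leaving out the KO control that did not match its labelled sex gave 2 and 0. The cause of these shifts was not tested.

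Nonoverlapping genes numbered 1446 to 3012 higher and 1470 to 2426 lower when 1 library was left out, and 3060 and 4380 against WT control 3 alone, where fewer libraries have to be separated. Of 91 named genes with a direction, *Dctn1* turned to 0.032 and *Hsph1* to -0.019 against WT control 3 alone, and none turned under the other alternatives. The 91 genes were taken because their groups did not overlap, so a turn was unlikely from the start and its absence is no test. DESeq2 took 38 of them past the threshold and the fit without WT control 3 took 10. List medians were below 0 in 37 of 52 lists, in 27 against WT control 3 alone and in 30 among male mice. The median moved by more than the spread of the list between libraries of a group in 19 of 52 lists against WT control 3 alone, in 13 among male mice and in 4 to 9 when 1 library was left out. The lymphocyte and adipocyte lists had no median at a minimum of 2 FPKM. With 3 mice a group and 6 residual degrees of freedom, small changes could not be called, and levels under 0.5 FPKM were not tested.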
